A study of Mus musculus with 26 samples.

Results

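The 10 genes described here encode Toll-like receptors and the proteins they work with: Tlr1, Tlr2, Tlr3, Tlr4, Tlr6, Tlr7, Tlr9, Cd14, Ly96 and Myd88. They were chosen by name, as every probe set annotated with exactly 1 gene symbol from that list, which gave 16 of the 45037 probe sets of the array other than its controls and 10 of 18193 genes. Messenger RNA was measured on 26 Affymetrix mouse arrays, 1 per sample, in the log2 values deposited by the authors. The labels name 8 progenitor populations of C57/Bl6 males aged 2 months, and no transgene, deletion or treatment. MPPFL- (n = 5) and MPPFL+ (n = 3) are multipotent progenitors, CMP (n = 3) common myeloid progenitors, GMP (n = 3) granulocyte-macrophage progenitors and CLP (n = 3) common lymphoid progenitors, all from bone marrow. DN1, DN2 and DN3 (n = 3 each) are successive early thymocyte stages. The CLP arrays carry the name ALP in a further label. Whether the arrays of a population came from separate animals is not said, so p-values measure the spread between these samples, which may be technical.

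Toll-like receptors recognise microbial molecules and start inflammatory signalling. Tlr4 binds bacterial lipopolysaccharide together with Ly96 (MD-2), after Cd14 has handed the lipid over; Tlr2 pairs with Tlr1 or Tlr6 to bind bacterial lipopeptides; and Tlr3, Tlr7 and Tlr9 sense nucleic acids inside endosomes. Myd88 is the adaptor that carries the signal of these receptors, other than Tlr3, to the Irak kinases and NF-kappaB. In the bone marrow, stem and progenitor cells as well as mature myeloid cells are known to carry some of these receptors.

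The lowest value of the table, 2.17 on the log2 scale, recurred on every array, where it made up 30.2% to 37.1% of the values, and is called the floor below. A gene is said to rise or fall where its Benjamini-Hochberg adjusted p over all probe sets was under 0.05 in a limma fit of all arrays, read from its probe set with the highest mean. Each of the 26 arrays resembled another array of its own population most. Of the granulocyte-macrophage progenitor markers, 0 of 8 measured were near the floor (within 1 log2 unit of it on all arrays) in GMP. The same held in MPPFL-, MPPFL+ and CMP, against 1 of 8 in CLP and DN1, 4 in DN2 and 5 in DN3. The mean log2 level of these markers ran from 12.91 to 13.07 over the GMP arrays and 11.15 to 11.62 over CMP. The mean level of Flt3 was 10.99 in MPPFL- and 13.31 in MPPFL+, and that of Il2ra, high in DN2 and DN3, was 13.14 and 13.16 there. The poly-A spike-in controls, added to RNA before labelling, had population means between 2.56 (DN1 and DN2) and 12.2 (DN3), with 9.98 in CMP and 8.21 in GMP, and the arrays formed 6 clusters on them. The log2 difference between the 3' and 5' probe sets of actin ran from 1.49 in GMP to 3.74 in MPPFL-. On 4 arrays (DN1 replicates 1 and 3, DN2 replicates 2 and 3) Xist was high against the male label. Since these are bulk samples, fewer cells that express a gene and less RNA per cell cannot be told apart.

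The 10 genes changed at different steps of the progenitor series. Tlr7 was the gene that rose from MPPFL- to MPPFL+, 1 of 10 against 15.0% of all probe sets. From MPPFL+ to CMP, Tlr1 and Cd14 rose while Tlr4, Tlr7, Ly96 and Myd88 fell, 6 of 10 against 16.0% of all probe sets, of which 2206 rose and 4999 fell. From CMP to GMP, Tlr1, Tlr4, Tlr6, Cd14 and Myd88 rose, 5 of 10 against 16.2%. The median difference of the 10 genes at that step was 1.11 on the log2 scale, against a median of 0 over all probe sets.

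Along the lymphoid side, Tlr7 rose again from MPPFL+ to CLP, 1 of 10 against 4.11% of all probe sets. From CLP to DN1, Tlr6 rose and Tlr1, Tlr2, Tlr7 and Ly96 fell, 5 of 10 against 23.1%. From DN1 to DN2, Tlr7 fell, 1 of 10 against 5.48%. From DN2 to DN3, Tlr2 rose and Tlr6 and Tlr9 fell, 3 of 10 against 23.9%, a share close to that background. Set directly against GMP, CLP had more Tlr7 and less Tlr1, Tlr4, Tlr6 and Cd14, 5 of 10 against 20.8%. Where only the arrays of the 2 populations compared were fitted, Tlr1 alone was called between MPPFL+ and CMP, Tlr2 and Tlr7 between CLP and DN1, and 0 genes from MPPFL+ to CLP, from DN1 to DN2 and from DN2 to DN3, so the calls at these steps rest on the spread estimated over all 26 arrays. The shares of all probe sets include many dim ones. With 1 probe set per gene they became 15.9% for MPPFL+ against MPPFL-, 24.1% for CMP against MPPFL+, 21.4% for GMP against CMP, 6.54% for CLP against MPPFL+, 26.9% for DN1 against CLP, 8.11% for DN2 against DN1, 31.1% for DN3 against DN2 and 28.3% for CLP against GMP. With dim probe sets left out they were, in the same order, 28.8%, 30%, 28.5%, 7.67%, 41%, 9.9%, 42% and 35.7%, so the 5 of 10 from CLP to DN1 lay close to that background.

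**Figure D1:**
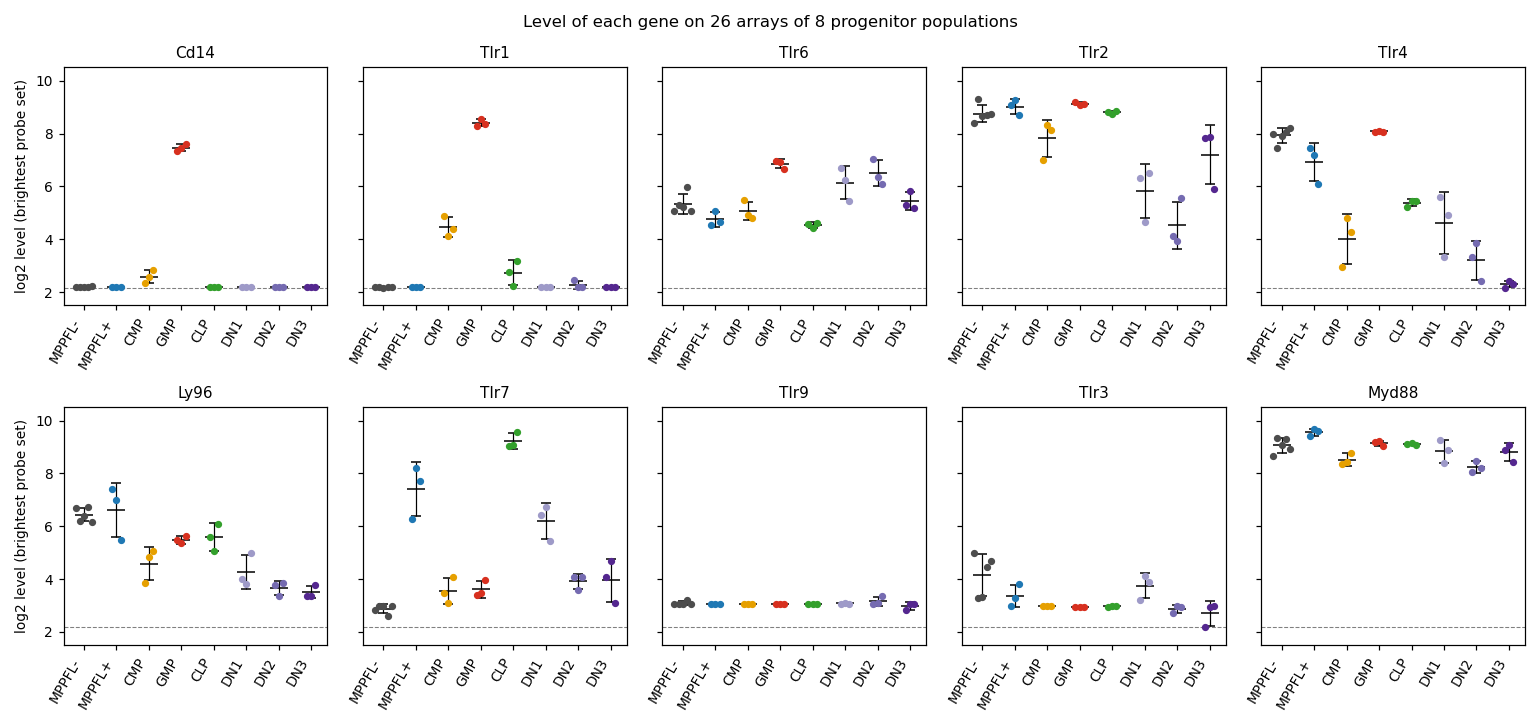
Log2 level (vertical axis) of each of the 10 genes on every array, by population, from the probe set with the highest mean. Points are arrays, bars the mean ± SD of a population and the dashed line the floor of 2.17; Cd14 and Tlr1 stand out in GMP, Tlr7 in CLP, MPPFL+ and DN1, and Tlr9 keeps to 1 low value.

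Cd14, the surface protein that passes lipopolysaccharide to Tlr4, was measured well above the floor in GMP alone. The 3 GMP arrays read 7.33, 7.44 and 7.62 on the log2 scale, with a mean of 7.46 ± 0.14 (SD, n = 3). The CMP arrays read 2.36, 2.55 and 2.84, and every array of the other 6 populations lay between 2.18 and 2.21. The GMP arrays thus stood apart from all others, and the CMP arrays lay just above the rest without overlap. Cd14 rose by 4.88 ± 0.08 (SE) from CMP to GMP (adjusted p = 9.23e-20), which is 29.5-fold on the measured scale against arrays within 1 log2 unit of the floor. The rise from MPPFL+ to CMP was 0.40 ± 0.08 (adjusted p = 0.000856) and lay wholly within 1 log2 unit of the floor. It was not called where only these 2 populations were fitted (adjusted p = 0.266). CLP was at least 39.1-fold lower than GMP (adjusted p = 2.01e-20). These SEs and p-values pool the spread of all 8 populations, which for Cd14 was almost nil in the 6 at the floor. The SD was 0.24 in CMP and 0.14 in GMP. Over the alternatives the adjusted p reached 0.00161 for GMP against CMP and 5.78e-05 for CLP against GMP.

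Tlr4, the lipopolysaccharide receptor itself, was high at the start, fell in CMP and was high again in GMP. On its brightest probe set the MPPFL- arrays read 8.00, 7.46, 7.90, 8.07 and 8.21. The MPPFL+ arrays read 7.47, 7.18 and 6.10, and the CMP arrays 2.95, 4.79 and 4.26. The 3 GMP arrays lay at 8.08, 8.11 and 8.05, close together and within the range of MPPFL-. The CMP arrays lay below every array of MPPFL-, MPPFL+ and GMP. Tlr4 fell by 2.91 ± 0.50 (SE) from MPPFL+ to CMP (adjusted p = 0.0004) and rose by 4.08 ± 0.50 from CMP to GMP, 16.9-fold (adjusted p = 9.03e-06). CMP replicate 1 was the lowest of its 3 arrays, and without it both changes were still called, at -2.39 (adjusted p = 0.00292) and 3.55 (adjusted p = 6.95e-05).

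On the lymphoid side Tlr4 was lower. The CLP arrays read 5.22, 5.44 and 5.46, which is 2.71 below GMP (adjusted p = 0.000445). The DN1 arrays read 5.60, 3.34 and 4.90, the DN2 arrays 3.34, 3.87 and 2.41, and the DN3 arrays 2.17, 2.41 and 2.31. Means went down at each of these steps, from 5.37 in CLP to 4.61, 3.21 and 2.30, but arrays of neighbouring stages overlapped and no single step passed the test (adjusted p between 0.135 and 0.361). Without DN1 replicate 2, the lowest DN1 array, the fall from DN1 to DN2 was 2.04 (adjusted p = 0.0128). Without the arrays against the male label replicate 2 alone is left in DN1, assumed to vary like the other populations, and the difference from CLP was then -2.04 (adjusted p = 0.0129). CLP lay 1.54 below MPPFL+ (adjusted p = 0.121), which passed where dim probe sets were left out (adjusted p = 0.0495). In DN3 all 3 arrays were within 1 log2 unit of the floor.

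Tlr4 is represented by 4 probe sets, which did not all read alike. The next brightest, 1418163_at, also fell from MPPFL+ to CMP by 2.45 (adjusted p = 0.000743) and rose from CMP to GMP by 3.88 (adjusted p = 4.5e-06). Its GMP arrays, at 7.88, 7.95 and 8.12, lay above all others. Between the multipotent populations the brightest probe set had a difference of -1.01 (adjusted p = 0.167) and 1418163_at one of 0.73 (adjusted p = 0.312), with opposite signs and neither called. A dim one, 1442827_at, was 1.16 lower in MPPFL+ than in MPPFL- (adjusted p = 2.14e-07), where it read 4.01, 3.40, 3.57, 3.31 and 3.62. The last, 1430695_at, stayed at the floor on all arrays.

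**Figure D2:**
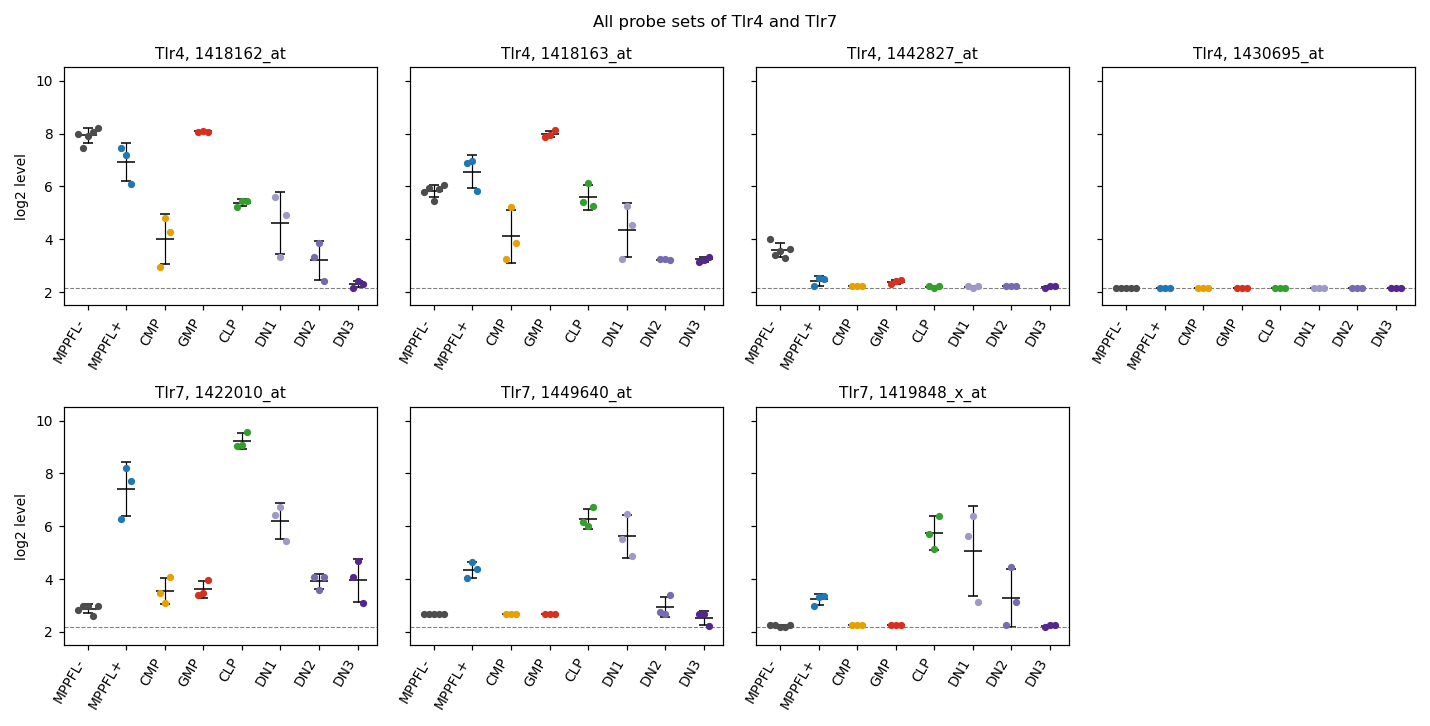
Log2 level (vertical axis) on every array for the 4 probe sets of Tlr4 (upper row) and the 3 of Tlr7 (lower row), by population, with mean ± SD and the floor of 2.17 as a dashed line. Both bright Tlr4 probe sets dip in CMP and peak in GMP, and all 3 Tlr7 probe sets have their highest mean in CLP.

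Ly96, which Tlr4 needs on its outer face to hold lipopolysaccharide, had its highest means in the multipotent progenitors. The MPPFL- arrays read 6.71, 6.21, 6.40, 6.72 and 6.18 and the MPPFL+ arrays 7.43, 6.98 and 5.48. The CMP arrays read 3.86, 4.85 and 5.06, below all of those. Ly96 fell by 2.04 ± 0.42 (SE) from MPPFL+ to CMP (adjusted p = 0.00186). It read 5.47, 5.35 and 5.65 in GMP, above the CMP arrays without overlap, but the difference of 0.90 did not pass the test (adjusted p = 0.173).

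In CLP the Ly96 arrays read 5.61, 5.06 and 6.10, and CLP and GMP differed by 0.10 (95% interval -0.77 to 0.98). CLP lay 1.04 below MPPFL+, which was not called, and 1.61 below without MPPFL+ replicate 3 (adjusted p = 0.014). The DN1 arrays read 4.01, 3.80 and 5.01, the DN2 arrays 3.79, 3.37 and 3.85 and the DN3 arrays 3.37, 3.37 and 3.78. All DN1 arrays lay below all CLP arrays, a fall of 1.32 ± 0.42 (adjusted p = 0.0264). That call was lost in 6 of 14 alternatives, among them those without CLP replicate 3 (adjusted p = 0.132) and without DN1 replicate 2 (adjusted p = 0.121). Across the 8 population means Ly96 and Tlr4 had a Pearson correlation of 0.889, given as a description of 8 points from 1 table.

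Tlr1, which joins Tlr2 to recognise triacylated lipopeptides, had its highest level in GMP, and CMP lay between GMP and the rest. The GMP arrays read 8.30, 8.55 and 8.37 and the CMP arrays 4.86, 4.14 and 4.40. The MPPFL-, MPPFL+, DN1 and DN3 arrays all lay between 2.17 and 2.21. CLP read 2.78, 2.23 and 3.18, and DN2 read 2.45 on 1 array and 2.18 on the others. Neither GMP nor CMP overlapped with any other population. Tlr1 rose at least 4.85-fold from MPPFL+ to CMP (difference 2.28 ± 0.17, SE; adjusted p = 2.15e-08) and a further 15.4-fold from CMP to GMP (3.94 ± 0.17; adjusted p = 2.38e-12). CLP was 51.2-fold lower than GMP on the measured scale (adjusted p = 4.66e-15), with 2 of its 3 arrays within 1 log2 unit of the floor. The SE of 0.17 pools all populations, including MPPFL-, MPPFL+, DN1 and DN3 with almost no spread. Over the alternatives the adjusted p reached 0.0228 from MPPFL+ to CMP, 0.00471 from CMP to GMP and 0.000813 for CLP against GMP.

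The CLP level of Tlr1 was low and uneven. Its difference from MPPFL+, 0.54, was not called (adjusted p = 0.0996), and without CLP replicate 2 it was 0.79 (adjusted p = 0.00201). The fall of 0.55 from CLP to DN1 (adjusted p = 0.0228) was lost in 7 of 14 alternatives, including the fit without the arrays that went against the male label (adjusted p = 0.187), which leaves DN1 with 1 array assumed to vary like the other populations.

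Tlr6, the partner of Tlr2 for diacylated lipopeptides, was measured above the floor everywhere and rose in both GMP and DN1. The GMP arrays read 6.97, 6.94 and 6.67 and the CMP arrays 5.48, 4.91 and 4.82, a rise of 1.79 ± 0.30 (SE; adjusted p = 0.000319) with no overlap. The CLP arrays read 4.59, 4.42 and 4.63, and CLP lay 2.31 below GMP (adjusted p = 9.84e-06). The DN1 arrays read 6.70, 6.24 and 5.46, all above CLP, a rise of 1.59 ± 0.30 (adjusted p = 0.000597). Tlr6 thus went up at the step from CLP to DN1, where Tlr2 went down. The fall of Tlr1 at that step was 0.55, lay close to the floor and stayed called in 7 of 14 alternatives.

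DN2 read 7.04, 6.35 and 6.10 for Tlr6, overlapping with both DN1 and GMP. DN3 read 5.30, 5.83 and 5.19, below every DN2 array. The fall of 1.06 ± 0.30 from DN2 to DN3 (adjusted p = 0.014) was lost in 5 of 14 alternatives, among them those without DN2 replicate 1 (adjusted p = 0.0865), DN3 replicate 1 (0.0532) and DN3 replicate 3 (0.0578). MPPFL- arrays read 5.09, 5.30, 5.21, 5.99 and 5.07 and MPPFL+ arrays 4.54, 5.05 and 4.66, a difference of -0.58 that was not called.

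Tlr1 and Tlr6 lie next to each other on chromosome 5, with 0 annotated genes between them in the RefSeq annotation of GRCm38.p6, and both rose from CMP to GMP. Their promoter windows, 250 bases before to 50 after a transcription start, are therefore shown for comparison, each on the minus strand of GRCm38.p6 and read 5′ to 3′, from the RefSeq-based table. The first of 2 listed windows is given for each gene, at chr5:64933509-64933808 for Tlr1 and chr5:64959117-64959416 for Tlr6. Capitals mark GAGGAAG, a purine-rich core of the kind bound by PU.1 and other Ets factors, on either strand.
Tlr1: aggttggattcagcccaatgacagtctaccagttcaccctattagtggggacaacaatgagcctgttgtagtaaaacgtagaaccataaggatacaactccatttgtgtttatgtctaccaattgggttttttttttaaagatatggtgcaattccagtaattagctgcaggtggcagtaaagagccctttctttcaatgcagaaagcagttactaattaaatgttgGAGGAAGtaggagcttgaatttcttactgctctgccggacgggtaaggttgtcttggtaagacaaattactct
Tlr6: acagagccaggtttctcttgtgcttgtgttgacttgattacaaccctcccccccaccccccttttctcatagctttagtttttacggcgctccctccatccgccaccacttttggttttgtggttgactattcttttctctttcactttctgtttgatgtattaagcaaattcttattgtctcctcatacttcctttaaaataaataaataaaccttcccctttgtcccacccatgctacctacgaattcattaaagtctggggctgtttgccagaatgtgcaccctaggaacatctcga

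The Tlr1 window held the core once, beginning 23 bases before the start, and the Tlr6 window did not hold these letters. Of 32817 distinct full-length promoter windows, with chr18 left out, 13.6% hold GAGGAAG on either strand. The Tlr6 window held a C/EBP pattern (TTGCNNAA, in 10.8% of windows) on the reverse strand, printed above as ttaagcaa. It also held a Runx pattern (TGTGGT, in 16.8%) on the forward strand. With chr18 left out, windows were found for 6 of the 10 genes. Among the others, Tlr9 held GAGGAAG on both strands, and Tlr3 held TTGCNNAA on the reverse strand. Tlr3 and Tlr9 each held a Gata pattern (AGATAA, in 11.2% of windows), in Tlr9 on the reverse strand. Neither the second windows of Tlr1 and Tlr6 nor those of Tlr2 and Myd88 held any of the 4 patterns. Letters in a window are a description of sequence only.

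Tlr2, the shared partner of Tlr1 and Tlr6, was high in most marrow populations and had its lowest mean in DN2. The MPPFL- arrays read 8.39, 9.30, 8.66, 8.69 and 8.73, the MPPFL+ arrays 9.07, 9.28 and 8.71, the GMP arrays 9.20, 9.08 and 9.12 and the CLP arrays 8.82, 8.75 and 8.84. Neighbours in the order of these 4 means overlapped. The CLP arrays lay below the GMP arrays without overlap; the difference of -0.33 (95% interval -1.44 to 0.78) was not called over all arrays, and was called where only these populations were fitted (adjusted p = 0.00937). CMP read 7.0, 8.32 and 8.13, under all arrays of these 4 populations, but its differences from MPPFL+ (-1.20, adjusted p = 0.156) and from GMP (1.32, adjusted p = 0.112) did not pass.

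In the thymus Tlr2 went down and up again. The DN1 arrays read 6.33, 4.66 and 6.51, the DN2 arrays 4.11, 3.94 and 5.54 and the DN3 arrays 7.82, 7.88 and 5.91. DN1 lay wholly below CLP, a fall of 2.97 ± 0.53 (SE; adjusted p = 0.000308), and DN2 overlapped with DN1. From DN2 to DN3 Tlr2 rose by 2.68 ± 0.53, 6.39-fold (adjusted p = 0.000745), with no overlap. The low DN3 array is replicate 3, whose spike-in controls also set it apart from the other DN3 arrays; without it the rise was 3.32 (adjusted p = 5.68e-05). Without the 4 arrays against the male label the fall from CLP to DN1 was 4.14 and the rise from DN2 to DN3 was 3.10, both called, but 1 array each is then left in DN1 (the lowest, replicate 2) and DN2, assumed to vary like the other populations. DN2 and DN3 also differed most widely in the spike-in controls, whose part in the result was not tested beyond the fit with spike-in cluster as a random block, where the rise of Tlr2 was still called.

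**Figure D3:**
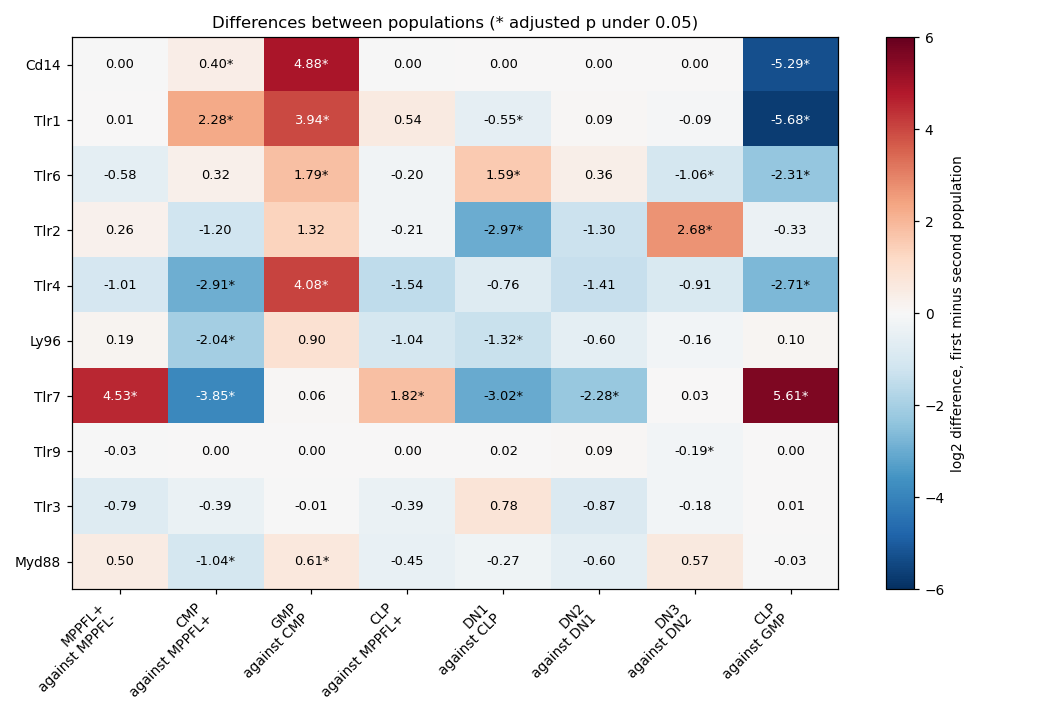
Log2 difference between the first and the second population for each of the 10 genes (rows) in the 8 comparisons (columns), with the value printed in each cell and an asterisk where the adjusted p was under 0.05. Red cells are higher in the first population and blue cells lower; the column of GMP against CMP has 5 called cells, all red.

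Tlr7, the endosomal receptor for single-stranded RNA, was high in MPPFL+ and CLP and low in MPPFL-, CMP and GMP. On its brightest probe set the MPPFL- arrays read 2.83, 3.00, 2.97, 2.59 and 2.97, and the MPPFL+ arrays 6.27, 8.21 and 7.73. The CLP arrays read 9.05, 9.06 and 9.56. CMP read 3.48, 3.09 and 4.08 and GMP 3.39, 3.48 and 3.98, so every MPPFL+ and CLP array lay above every MPPFL-, CMP and GMP array. Tlr7 was 4.53 ± 0.39 (SE) higher in MPPFL+ than in MPPFL- (adjusted p = 1.61e-07), 23.1-fold on the measured scale against arrays within 1 log2 unit of the floor. It fell by 3.85 ± 0.44 from MPPFL+ to CMP (adjusted p = 4.9e-06), and CLP was 48.8-fold above GMP (adjusted p = 1.01e-08).

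The rise of Tlr7 from MPPFL+ to CLP was smaller, 1.82 ± 0.44 (adjusted p = 0.0185). It was not called without MPPFL+ replicate 1, the lowest array of that population (adjusted p = 0.131), or without CLP replicate 3 (adjusted p = 0.0975). The second probe set, 1449640_at, read 4.03, 4.64 and 4.39 in MPPFL+ and 6.16, 6.0 and 6.72 in CLP, a rise of 1.94 ± 0.28 (adjusted p = 0.00016) that was called without either of those arrays. The third, 1419848_x_at, rose by 2.52 ± 0.57 (adjusted p = 0.0118), and was not called without MPPFL+ replicate 1 (adjusted p = 0.0551) or CLP replicate 3 (0.0794). All 3 probe sets agreed in direction at this step; the suffix of the last marks probes that may also match other genes.

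In the thymus Tlr7 fell in 2 steps on the brightest probe set. The DN1 arrays read 6.43, 6.72 and 5.45, below CLP by 3.02 (adjusted p = 3.97e-05) and overlapping with MPPFL+. DN2 read 4.08, 3.60 and 4.08 and DN3 4.08, 4.67 and 3.09, so that DN2 lay 2.28 below DN1 (adjusted p = 0.00297) and DN3 overlapped with DN2. The probe sets placed the fall differently: 1449640_at read 5.51, 6.48 and 4.86 in DN1, overlapping with CLP (difference -0.68, adjusted p = 0.106), and then fell by 2.68 to DN2 (adjusted p = 4.25e-06). Without DN1 replicate 2 its difference between DN1 and CLP was -1.11 (adjusted p = 0.00201). On the third, DN1 read 5.63, 6.41 and 3.15 and DN2 2.27, 4.45 and 3.14, and neither of these steps was called; without DN1 replicate 3 the latter was -2.73 (adjusted p = 0.000406). Without the arrays against the male label, which leaves 1 array each in DN1 and DN2, the fall from DN1 to DN2 on the brightest probe set was 2.64 (adjusted p = 0.0495).

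Markers of dendritic cells, which are known to carry Tlr7, were highest in CLP, as Tlr7 was, but did not follow it through all populations. The list includes Flt3, whose mean was also higher in MPPFL+ than in MPPFL-, as given above. Means of the list without Flt3 are not given. Of the 11 markers measured, 4 (Zbtb46, Xcr1, Batf3 and Cd209a) were near the floor on all CLP arrays. The count was 5 in MPPFL+, DN1 and DN2 alike, and 7 in MPPFL-, CMP, GMP and DN3. Siglech, which marks plasmacytoid dendritic cells, had a mean of 5.26 in CLP and 2.17 in each other population; Itgax had 7.21 in CLP against 3.02 in MPPFL+ and 2.61 in GMP. The mean log2 level of the list ran from 6.25 to 6.37 over the CLP arrays, 5.11 to 5.42 over MPPFL+, 4.76 to 4.90 over DN1, 4.56 to 4.87 over CMP, 4.31 to 4.54 over MPPFL-, 3.84 to 4.21 over DN2, 3.73 to 3.89 over GMP and 3.28 to 3.73 over DN3. CMP, with low Tlr7, thus overlapped on this list with DN1, and Itgax had means of 3.96 in DN1 and 4.91 in DN2. The mean log2 level of 7 measured B cell markers was also highest in CLP, 4.59 to 5.10, against 4.02 to 4.24 in DN3. It ran from 3.52 to 3.64 in MPPFL+. In CLP 4 of the 7 were near the floor, against 5 in MPPFL+ and DN3. The part of either list in the Tlr7 levels was not tested.

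Tlr9, the receptor for unmethylated CpG DNA, was read close to 1 low value on nearly all arrays. Its probe set read 3.07 or less, or at most 0.1 more, on 24 of 26 arrays, and the highest array, DN2 replicate 3, read 3.37. The test called a fall of 0.19 from DN2 to DN3 (adjusted p = 0.0463), but the arrays overlapped (3.07, 3.08 and 3.37 against 2.82, 3.07 and 3.07). Without DN2 replicate 3 the call was lost (adjusted p = 0.332), as it was without DN3 replicate 1 (adjusted p = 0.303).

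Tlr3, which binds double-stranded RNA and signals without Myd88, was low and passed no comparison on either probe set. On the brighter of them the MPPFL- arrays read 4.98, 3.27, 3.32, 4.47 and 4.70, the MPPFL+ arrays 2.97, 3.29 and 3.80 and the DN1 arrays 3.21, 4.13 and 3.90. The CMP, GMP and CLP arrays all read 2.96 or 2.97. All MPPFL- and DN1 arrays thus stood above that shared low value. The difference between MPPFL+ and MPPFL- was -0.79 (adjusted p = 0.136), and without MPPFL- replicate 2 it was -1.01 (adjusted p = 0.0346) and without replicate 3 -1.0 (adjusted p = 0.0416). The other probe set was near the floor on all arrays.

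Myd88 was measured well above the floor in all 8 populations, and its population means spanned 1.32 log2 units. The MPPFL+ arrays read 9.42, 9.67 and 9.60 and the CMP arrays 8.34, 8.44 and 8.79, a fall of 1.04 ± 0.21 (SE; adjusted p = 0.0014) with no overlap. The GMP arrays read 9.18, 9.21 and 9.02, above CMP by 0.61 ± 0.21 (adjusted p = 0.0488). That rise was lost in 9 of 13 alternatives, with an adjusted p of up to 0.295. Among them were the fits without CMP replicate 1 (adjusted p = 0.167) or replicate 2 (0.0957) and those without any 1 of the GMP arrays (0.0684 to 0.13).

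None of the other 6 comparisons was called for Myd88 over all arrays. MPPFL- read 8.68, 9.33, 9.08, 9.31 and 8.92, and CLP read 9.11, 9.14 and 9.08. The MPPFL+ arrays lay above those of CLP and of MPPFL- without overlap. MPPFL+ exceeded MPPFL- by 0.50 (adjusted p = 0.0799), a difference called after quantile normalization (adjusted p = 0.0425). DN1 read 9.26, 8.38 and 8.88, DN2 read 8.05, 8.47 and 8.19, and DN3 read 8.90, 9.08 and 8.44. The DN3 mean lay 0.57 above DN2 (adjusted p = 0.0519), and without DN3 replicate 3 the difference was 0.75 (adjusted p = 0.0143), without DN2 replicate 2 it was 0.69 (adjusted p = 0.0356). The difference from DN1 to DN2 was -0.60, and -0.83 without DN1 replicate 2 (adjusted p = 0.019).

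Several members were low together in CMP. Tlr4, Tlr2, Ly96 and Myd88 were all lower on every CMP array than on any MPPFL+ or GMP array, and of these Tlr4, Ly96 and Myd88 passed the test against MPPFL+. CMP replicate 1 was the lowest CMP array for each of the 4 genes and formed a spike-in cluster of its own. Without it the falls of Ly96 and Myd88 from MPPFL+ were 1.67 (adjusted p = 0.0134) and 0.95 (adjusted p = 0.00836). With spike-in cluster as a random block all 6 genes called between MPPFL+ and CMP were called again. The comparisons of CMP with MPPFL+ and of GMP with CMP share the CMP arrays.

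The rest of the pathway was read from lists of 64 genes drawn up by role, of which 56 were measured. From CMP to GMP 12 rose and 3 fell (26.8%, against 16.2% of all probe sets), with a median difference of 0.014. From MPPFL+ to CMP 4 rose and 16 fell (35.7%, against 16.0%), with a median of -0.40, against 0 over all probe sets in each case. With dim probe sets left out, the median over all probe sets from MPPFL+ to CMP was -0.083. From CLP to DN1 11 rose and 15 fell (46.4%, against 23.1%). From MPPFL- to MPPFL+ 8 rose and 4 fell (21.4%, against 15.0%), and from MPPFL+ to CLP 3 rose and 4 fell (12.5%, against 4.11%). From DN1 to DN2 1 rose and 10 fell (19.6%, against 5.48%), and from DN2 to DN3 11 rose and 13 fell (42.9%, against 23.9%). In CLP against GMP 14 were higher and 7 lower (37.5%, against 20.8%). The pathway genes are read from their brightest probe sets. With dim probe sets left out, the share of all probe sets was 28.8% from MPPFL- to MPPFL+ and 28.5% from CMP to GMP, both above the pathway's share. It was 30% from MPPFL+ to CMP, 41% from CLP to DN1, 42% from DN2 to DN3 and 35.7% in CLP against GMP, closer to the pathway's share than before, and 7.67% from MPPFL+ to CLP and 9.9% from DN1 to DN2.

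**Figure D4:**
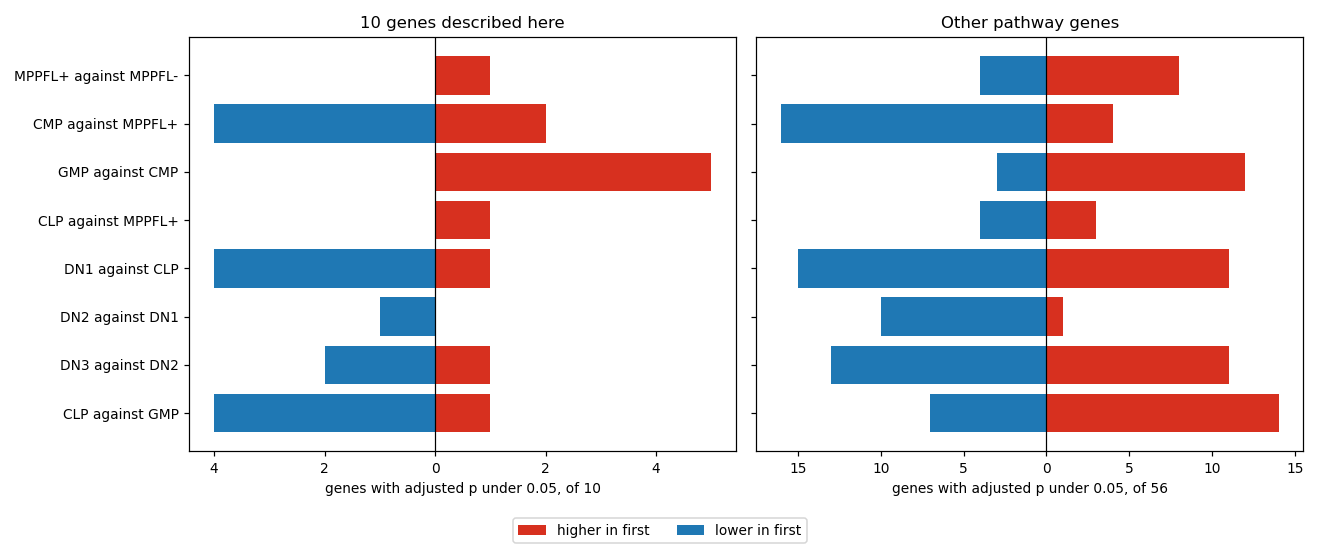
Number of genes called higher (bars to the right) or lower (bars to the left) in the first population of each comparison, for the 10 genes (left panel) and for the 56 other pathway genes measured (right panel). The step from CMP to GMP has called genes among the 10 on the higher side only, while the step from MPPFL+ to CMP has most of its called pathway genes, 16 of 20, on the lower side, as have all probe sets at that step (2206 rose and 4999 fell).

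Among the chaperones and trafficking proteins, Unc93b1 carries the endosomal receptors, Tlr7 included, out of the endoplasmic reticulum. Its mean log2 level was 5.62 in MPPFL-, 8.58 in MPPFL+ and 10.54 in CLP, and it rose at both steps, by 2.96 (adjusted p = 3.88e-07) and 1.96 (adjusted p = 0.000337). It fell by 3.66 from CLP to DN1 (adjusted p = 7.27e-08) and by 1.88 from DN1 to DN2 (adjusted p = 0.000646). Unlike Tlr7 it was 1.62 higher in GMP than in CMP (adjusted p = 0.000964) and 3.04 higher in DN3 than in DN2 (adjusted p = 3.62e-07). Hsp90b1, the chaperone that folds most of these receptors, rose by 1.02 from CMP to GMP (adjusted p = 0.00419), and Cnpy3, its co-chaperone, fell by 1.76 from CLP to DN1 (adjusted p = 2.38e-05).

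Among the other surface partners, Lbp, the protein that delivers lipopolysaccharide to Cd14, shared the GMP rise. Its mean was 12.41 ± 0.08 in GMP, 2.78 above CMP (adjusted p = 3.74e-06), and 5.03 ± 0.79 in CLP, 7.38 below GMP (adjusted p = 1.43e-12). Ly86, which pairs with the receptor-like protein Cd180, rose by 6.71 from MPPFL+ to CMP (adjusted p = 2.37e-10) and by 7.12 from MPPFL+ to CLP (adjusted p = 1.01e-10). It then fell by 3.88 from CLP to DN1 (adjusted p = 2.88e-07). Tlr5 and Tlr8 had means of 2.17, the floor, in every population.

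Of the 4 measured adaptors, Tirap, which bridges Tlr2 and Tlr4 to Myd88, was 1.5 higher in GMP than in CMP (adjusted p = 0.000698). Its mean went from 8.82 in CLP to 6.47 in DN1, 5.85 in DN2 and 2.72 in DN3, with falls of 2.35 from CLP to DN1 (adjusted p = 3.75e-06) and 3.13 from DN2 to DN3 (adjusted p = 5.55e-08). At the latter step Tlr2 rose while Tirap fell. Pik3ap1, an adaptor that links the receptors to phosphoinositide 3-kinase, fell by 3.53 from DN2 to DN3 (adjusted p = 4.23e-09).

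Of the 8 measured inhibitors, Irak3, which restrains the Irak kinases, rose by 1.34 from CMP to GMP (adjusted p = 6.53e-05). It fell by 2.96 from MPPFL+ to CLP (adjusted p = 4.73e-09) and by a further 2.87 from CLP to DN1 (adjusted p = 5.07e-09), and its mean was 4.32 lower in CLP than in GMP (adjusted p = 3.14e-12). Of the 5 measured transcription factors, 4 were higher in CLP than in GMP, among them Irf7 by 2.01 (adjusted p = 0.000741) and Rela by 1.76 (adjusted p = 2.97e-06). From DN2 to DN3 3 of these 5 factors rose, Irf7 and Rela among them, and 1 fell. The 1 that fell was Irf5, which acts downstream of Myd88, by 2.48 (adjusted p = 7.59e-06). Of the 14 measured kinases and ubiquitin ligases, Ikbke rose by 2.11 from CMP to GMP (adjusted p = 6.76e-07) and Map3k8 fell by 3.82 from MPPFL+ to CMP (adjusted p = 1.09e-06).

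Of 12 genes that Toll-like receptor signalling is known to induce, 5 rose and 0 fell from CLP to DN1 (41.7%, against 23.1% of all probe sets, or 41% with dim ones left out), where 4 of the 10 receptor genes and partners fell and Tlr6 rose. Cxcl2, a neutrophil chemokine, rose by 7.19 ± 1.51 (SE; adjusted p = 0.00135), Ptgs2, cyclooxygenase-2, by 4.02 ± 1.06 (adjusted p = 0.00808), and the cytokine gene Tnf by 3.10 ± 0.48 (adjusted p = 7.07e-05). From CMP to GMP, where 5 of the 10 rose, 0 of the 12 targets rose and Ccl4 fell by 2.99 (adjusted p = 0.00012; 8.33%, against 16.2%). The targets are set beside Tlr7 here, and its part in their levels was not tested. From MPPFL- to MPPFL+, where Tlr7 rose, the chemokine genes Ccl3 and Ccl4 rose (16.7%, against 15.0%, or 28.8% with dim ones left out). From MPPFL+ to CMP, where Tlr7 fell, Cd86 and Nfkbiz fell (16.7%, against 16.0%, or 30%). From MPPFL+ to CLP Tlr7 rose, while 0 targets rose and Ccl4 fell (8.33%, against 4.11%, or 7.67%). From DN1 to DN2, where Tlr7 fell, 4 targets fell, among them Ccl3, Ccl4 and Tnf (33.3%, against 5.48%, or 9.9%). In CLP against GMP, where Tlr7 was higher, 4 targets were higher and 0 lower (33.3%, against 20.8%, or 35.7%). The 4 included Nfkbiz, Cd86 and Ccl3. From DN2 to DN3, where Tlr7 was not called, 0 targets rose and 3 fell (25%, against 23.9%, or 42%). A list of 19 immediate early and stress genes had its highest mean log2 level in the thymocytes of DN1, 9.86 to 12.09 over the 3 arrays, against 8.48 to 11.20 in DN2, 8.11 to 8.43 in CLP and 7.68 to 7.96 in GMP. Its part in the rise of the induced targets was not tested.

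Markers of other myeloid cells were set beside these values. The mean log2 level of the 12 macrophage and monocyte markers ran from 7.40 to 7.47 in GMP, 6.20 to 6.40 in CMP and 4.80 to 5.00 in DN1, with C1qa, C1qc and Fcgr1 near the floor in each of these populations. Several of the others had higher means in GMP than in CMP: Adgre1 9.03 against 6.12, Vcam1 11.55 against 5.33, Ccr2 9.72 against 8.25 and Cd68 9.84 against 8.21. Csf1r, the receptor of macrophage colony-stimulating factor, had means of 13.16 in GMP, 12.87 in CMP and 12.43 in DN1. The mean log2 level of the 8 neutrophil markers ran from 7.84 to 8.46 in GMP, 5.77 to 7.11 in CMP and 2.93 to 6.67 in MPPFL+, with 0, 1 and 2 of them near the floor; Lcn2 had a mean of 10.17 in GMP and 4.85 in CMP, and Camp 8.07 and 7.70. The part of such markers in the GMP rise of Cd14, Tlr1, Tlr4 and Tlr6 was not tested. Some macrophage markers were, like Tlr4 and Ly96, lower in CMP than in the multipotent progenitors. C1qb had means of 6.41 in MPPFL-, 5.66 in MPPFL+ and 3.36 in CMP, Mrc1 of 6.07, 6.61 and 4.39, and Vcam1 of 7.37, 8.38 and 5.33. The mean of the whole list ran from 4.88 to 6.23 in MPPFL- and 5.91 to 6.05 in MPPFL+, with 1 and 2 of 12 near the floor, and so was not lower in CMP. Their part in the falls of Tlr4 and Ly96 was not tested.

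For the 6 genes whose population means spanned at least 3 log2 units, the genes with the most similar profile over the 26 arrays were found by Pearson correlation, as a description only, since arrays of a population are not independent points. Cd14 was most like Far2 (0.998), Mcemp1 (0.998) and Cd177 (0.997). Tlr1 was most like Dmkn (0.991), Itga1 (0.990) and Cldn15 (0.986). All 6 of these genes had their highest mean in GMP.

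Tlr7 was most like Rgl1 (0.919), Slc18a1 (0.905) and Fcrl1 (0.893), each highest in CLP. Tlr4 was most like Aldh5a1 (0.946), Pde8a (0.924) and Capg (0.913), and Ly96 most like Fcgrt (0.961), Capg (0.945) and C1ra (0.940). Capg, an actin-capping protein, thus appeared for both Tlr4 and its partner Ly96 and had its highest mean, 10.90, in MPPFL-. Tlr2 was most like Gorasp1 (0.957), Thtpa (0.949) and Hs1bp3 (0.946).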

How the data were processed

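The deposited series table holds log2 values per probe set for 26 arrays; the authors' summary and normalization of them are not given in the sources used here. Per the labels, total RNA was extracted with Trizol and labelled with biotin. Populations came from the sample titles; MPPFL- and MPPFL+ are spelled MMPFL in another label. Of 45101 probe sets, 64 controls were left out of the tests; 34958 were annotated with 1 gene symbol, 932 with several and 9211 with none, by the platform annotation of GEO, and 34754 matched the RefSeq gene table. Values were used as deposited, with no filter and no further normalization. All arrays were fitted with limma 3.58.1 (R 4.3.3; lmFit, then eBayes); population was the only factor, with 18 residual and 0.482 prior degrees of freedom; tests are two-sided and p-values were adjusted by Benjamini-Hochberg over 45037 probe sets. A gene is read from its probe set with the highest mean. A fold against a population at the floor, or at a single low value shared by at least 5 arrays, is a lower bound with regard to that value only. The code was tested on simulated data. The number of arrays limits precision.

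The members, pathway and marker lists and tests were chosen with earlier results of these data known. Named genes are all members, up to 3 called genes with the largest change in each pathway role and comparison, and the 3 genes most correlated with each member spanning at least 3 log2 units. Markers named as checks, and probe sets or arrays singled out, were chosen after their values were seen. Alternatives were quantile normalization, a filter on dim probe sets, 1 probe set per gene, eBayes with trend and robust, a replicate block, spike-in cluster as a random block, only the 2 populations compared, and each array, or the 4 arrays against the male label, left out.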

Additional observations from a re-analysis of the deposited data

Results flagged for a closer look

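In MPPFL-, the population with 5 arrays, 5 genes each had 1 array far from the others by a gap rule, not always the same array. For normally distributed values chance alone meets this rule in about 1 in 20 groups, and 16 probe sets were tried. Where the other arrays share 1 low value, as for Tlr9, any small deviation meets it. For Tlr6, replicate 4 read 5.99 against 5.07 to 5.30 on the others. For the dimmer probe set of Tlr3, replicate 1 read 3.12 against 2.18 to 2.26. For Tlr9, replicate 4 read 3.23 against 3.07 on each of the others. For Tlr1 and Cd14 the gaps were within the floor: replicate 3 read 2.17 for Tlr1 (others 2.18), and replicate 5 read 2.21 for Cd14 (others 2.18). No other population had enough arrays for this rule.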

How the results depend on the processing

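Of 499 recomputed values of the member differences that were called, 449 kept their direction and stayed called, 50 kept their direction but lost the call and 0 reversed. Without the fits of only the 2 populations and the spike-in block, 27 of 423 were lost. Of 1680 values over all member differences, 26 gained a call and 136 of differences called in neither fit changed sign, which were not counted as reversed. Of 1550 values of pathway genes, 209 lost the call and 1 reversed: Rel in DN1 against CLP was 0.055 without the arrays against the male label.

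Leaving out each array in turn gave these counts of member genes called: 1 to 2 for MPPFL+ against MPPFL-, 6 for CMP against MPPFL+, 4 to 5 for GMP against CMP, 0 to 2 for CLP against MPPFL+, 3 to 5 for DN1 against CLP, 1 to 4 for DN2 against DN1, 1 to 4 for DN3 against DN2 and 5 for CLP against GMP. The 4 in DN2 against DN1 came without DN1 replicate 2. For all probe sets, in the same order, the counts were 4407 to 7193, 5546 to 9590, 6069 to 10446, 1420 to 1718, 8836 to 10879, 1685 to 2516, 9272 to 10836 and 8084 to 8705.

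Fitting only the 2 populations leaves fewer arrays to estimate the spread. It gave 1 member gene in CMP against MPPFL+, 0 in CLP against MPPFL+, 2 in DN1 against CLP, 0 in DN2 against DN1 and 0 in DN3 against DN2. In the limma fits with 0, the genes at an unadjusted p under 0.05 numbered 3, 2 and 2. The probe sets called were 1225 in CMP against MPPFL+, 2564 in GMP against CMP, 649 in CLP against MPPFL+, 5257 in DN1 against CLP, 297 in DN2 against DN1 and 6107 in DN3 against DN2. In CLP against MPPFL+ 0 genes were also called without MPPFL+ replicate 1 or CLP replicate 3, with 4 and 3 at an unadjusted p under 0.05.

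The spike-in block (correlation 0.320) gave 3 member genes in DN1 against CLP and 1 in DN3 against DN2, and 3115 probe sets in CMP against MPPFL+, 3312 in GMP against CMP, 5069 in DN1 against CLP, 6363 in DN3 against DN2 and 4910 in CLP against GMP. Quantile normalization called 2 member genes in MPPFL+ against MPPFL-, and leaving out dim probe sets 2 in CLP against MPPFL+. With 1 probe set per gene, and so fewer features, 2886, 4379, 3891, 1190, 4890, 1475, 5652 and 5152 genes were called, in the order above.

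The labels give replicates a number only. In no comparison did every same-numbered pair correlate above 0.1, and the correlations ran from -0.574 to 0.407. With 3 pairs per comparison, this check cannot show whether same-numbered arrays shared a preparation. With a replicate block, 4436 probe sets were called in MPPFL+ against MPPFL-, against 6759 without it, and Myd88 lost its call in GMP against CMP (adjusted p = 0.0833). The floor limits what can be said of Tlr9 and Tlr3, of Cd14 outside GMP, of Tlr1 outside CMP and GMP, of Tlr4 in DN3 and of Tlr7 in MPPFL-.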
